A study of Mus musculus with 10 samples.

Results

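Most of the 62 genes described here make ribosomes or encode the RNA exosome, and some only share a name prefix with such genes. The 62 are the genes of the deposited count table whose symbols begin with Nop, Utp, Nol, Rrp or Exosc followed by a number (46 genes), together with 16 genes named beside that pattern, such as Fbl, Ncl, Npm1 and Dkc1. They were 62 of 17404 genes in the table, and all 62 had the 11 counts in total that the comparison required. The cells were long-term hematopoietic stem cells (LT-HSCs) sorted from mouse fetal livers at E14.5 and profiled by bulk SmartSeq2 RNA-sequencing. The KO group was 6 libraries from embryos of genotype Tnfrsf11aCre; Spi1f/f, and the WT group 4 from Tnfrsf11a+/+; Spi1f/f embryos, so the floxed Spi1 alleles were shared by both groups and only KO carried the Cre. Tnfrsf11a drives Cre in macrophage precursors and Spi1 encodes PU.1, which macrophages need, so the comparison asks how LT-HSCs differ when the liver macrophages around them are depleted. Each library is a pool of sorted cells, so a value is an average over cells, and fewer cells of a type and less RNA per cell cannot be told apart.

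Ribosomes are built in the nucleolus. RNA polymerase I makes a long precursor RNA, which is modified at sites chosen by small nucleolar RNAs in box C/D particles (methylation by fibrillarin) and box H/ACA particles (pseudouridylation by dyskerin), cut by the small subunit processome and by large subunit assembly factors, and trimmed by the exosome, a ring of subunits that feeds RNA to attached nucleases. Adult blood stem cells are known to keep protein synthesis low, and fetal liver HSCs cycle more than those of the adult.

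Of the 62 members, 14 were lower in KO and 48 did not pass the test. With edgeR's quasi-likelihood test, adjusted by Benjamini-Hochberg over all genes, 14 of the 62 members (22.6%) were lower at an adjusted p below 0.1, against 446 of the 16725 genes tested (2.67%). No member was higher, against 221 genes (1.32%). At an unadjusted p below 0.05 by edgeR 0 members were higher, against 1438 of the 16725 genes. By DESeq2 at an adjusted p below 0.1, 0 members were higher with the study's settings, against 585 genes. Without a fold-change threshold DESeq2 also had 0 members higher, against 998 genes. The log2 fold change, KO minus WT, was below 0 in 58 members (93.5%), against 46.9% of all genes tested. Its median was -0.62 over the members and 0.06 over all genes tested. At an unadjusted p below 0.05, 32 members (51.6%) were lower, against 10.2% of all genes. In 14 members (22.6%) every KO library lay below every WT library, against 3.48% of all genes, and 11 of these were among the 14 that passed the test. DESeq2 with the study's settings called 16 members lower, against 3.29% of all genes. On the TPM scale, without rescaling between libraries, the counts differed. By limma on log2(TPM + 1), 39 members (62.9%) had a log2 fold change below 0, against 22.9% of all genes. The median was -0.12 over the members and 0.27 over all genes. At an unadjusted p below 0.05 that fit had 0 members lower, against 0.879% of all genes, and 2 higher (Nol6 and Nop53), against 20.2%. By limma on TMM-scaled log2(TPM + 1), a fit added later, 52 members (83.9%) had a log2 fold change below 0, against 36.3% of all genes. The median there was -0.39 over the members and 0.12 over all genes. In that scaled fit 0 members and 1 of all genes were lower at an adjusted p below 0.1. The adjusted p of the 14 members ran from 0.0824 to 0.0959, so none passed 0.05, and the count fell to 0 when any one of KO replicates 15405, 15406, 15411, 15412 and 15415 or WT replicate 15416 was left out. In each of these 6 fits 0 of all genes tested were lower at that threshold, so the loss was not particular to the members.

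**Figure D1:**
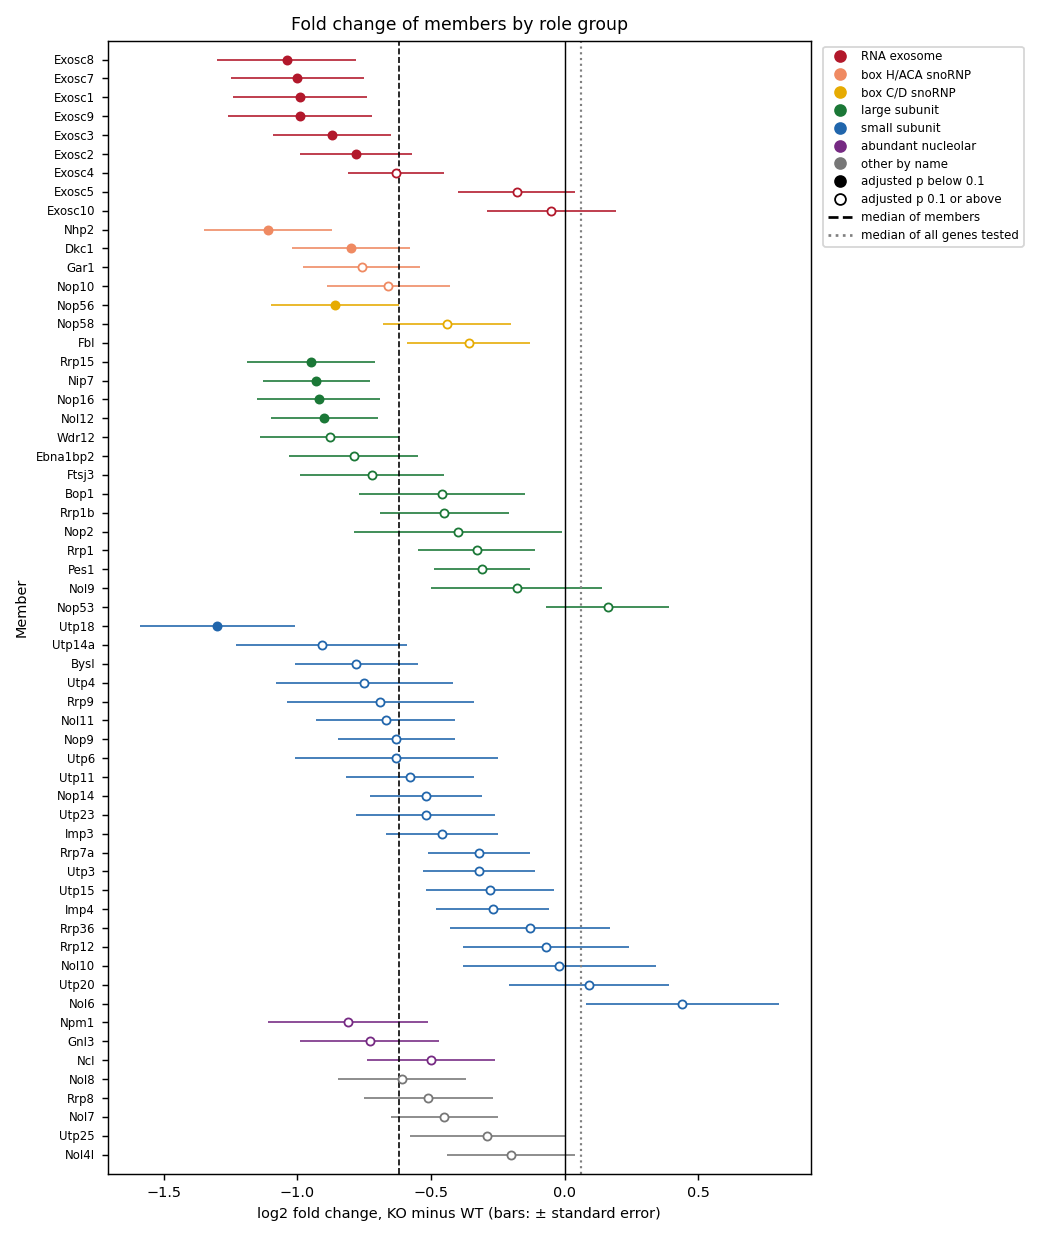
Log2 fold change, KO minus WT, of 59 members (points) with standard errors (bars), by role group, filled where the adjusted p was below 0.1. Nol4, Nol3 and Utp14b, with under 1000 counts in total, are left out. The dashed line is the median of the 62 members (-0.62) and the dotted line that of all genes tested (0.06), and 56 of the points lie left of 0.

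The libraries differed in ways that touch these genes. Their depth was 5315435 to 30941726 counts on genes, and members took 0.718% to 0.859% of the counts in KO and 0.641% to 0.952% in WT replicates 15417, 15418 and 15420, but 1.69% in WT replicate 15416. In that library 55 of the 62 members had their highest WT value (88.7%), against 30.5% of the 13083 genes with a mean above 1 CPM, counts scaled to library size, and a member's CPM there was 1.77 times the mean of the other WT libraries at the median (0.947 times for those 13083 genes). The summed CPM of 8 LT-HSC markers ran from 927 to 1942 in KO and from 374 to 805 in WT, lowest in WT replicate 15416, without overlap between the groups, and none of the 8 was at 0 in a whole group. For the other cell types the summed levels overlapped, but single markers differed in direction between lists. All 8 LT-HSC markers had a log2 fold change above 0 (median 1.27, 3 called higher), as did all 6 megakaryocyte markers (median 1.09, 0 called). Of the 10 macrophage markers 2 were above 0 (median -1.50), with Marco called lower, and 0 of the 6 erythroblast markers measured were above 0 (median -1.39), with Epor called lower. The 8 hepatoblast markers were all above 0 (median 0.72) and 5 of the 8 neutrophil and granule markers were (median 0.33), with 0 called in both lists. Macrophage markers summed to 193 to 944 CPM in KO and 82.2 to 645 in WT, with Marco at 0 in all KO libraries and Mrc1 giving 735 of the 944. Erythroblast markers summed to 233.5 to 2116 CPM in KO and 202 to 4527 in WT, hepatoblast markers to 98.8 to 8582 and 248 to 4459.6, neutrophil and granule markers to 13 to 1297 and 5.64 to 1562, and megakaryocyte markers to 244 to 3370.3 and 205 to 1103. Xist, the RNA of the inactive X chromosome, was at 106 to 149 CPM in all WT libraries and at 346 and 361 CPM in KO replicates 15409 and 15406, and at 1.36 to 2.38 CPM in the 4 other KO libraries. The targeted gene Spi1 was not lower in KO LT-HSCs, at 9.1 to 101 CPM (median 65.6) against 6.22, 33.8, 50.1 and 7.64 in WT, and its log2 fold change was 1.31 with an adjusted p of 0.337 by edgeR's quasi-likelihood test, Benjamini-Hochberg adjusted. The study describes this Cre as acting in macrophage precursors. Whether it acted in the sorted LT-HSCs was not tested, so Spi1 in LT-HSCs does not test the labels.

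The part that WT replicate 15416, Xist and the markers play in the results below was not tested beyond the fits given. Without WT replicate 15416 the median of the members moved from -0.62 to -0.33 (0.08 over all genes). Of the 61 members still tested, 50 (82.0%) had a log2 fold change below 0, against 45.1% of all genes. By edgeR 0 members, as 0 of all genes, passed an adjusted p of 0.1. At an unadjusted p below 0.05, 20 members were lower, against 7.93% of all genes. At that threshold 1 member, Utp14b, was higher, against 1264 of 16593 genes. In 14 members every KO library lay below the 3 other WT libraries, against 4.01% of all genes. With Xist as a covariate the median was -0.55, and in the 6 libraries with high Xist (2 KO, 4 WT; chosen after seeing the data) it was -0.51, with 0 members and 0 of all genes at an adjusted p below 0.1 in each. At an unadjusted p below 0.05, 27 and 5 members were lower, against 9.01% and 2.94% of all genes. Without the 3 libraries with the highest hepatoblast sums (KO 15412, KO 15415 and WT 15418; also chosen after seeing the data) the median was -0.56, with 0 members and 0 of all genes at an adjusted p below 0.1 and 27 members lower at an unadjusted p below 0.05, against 9.63% of all genes.

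**Figure D2:**
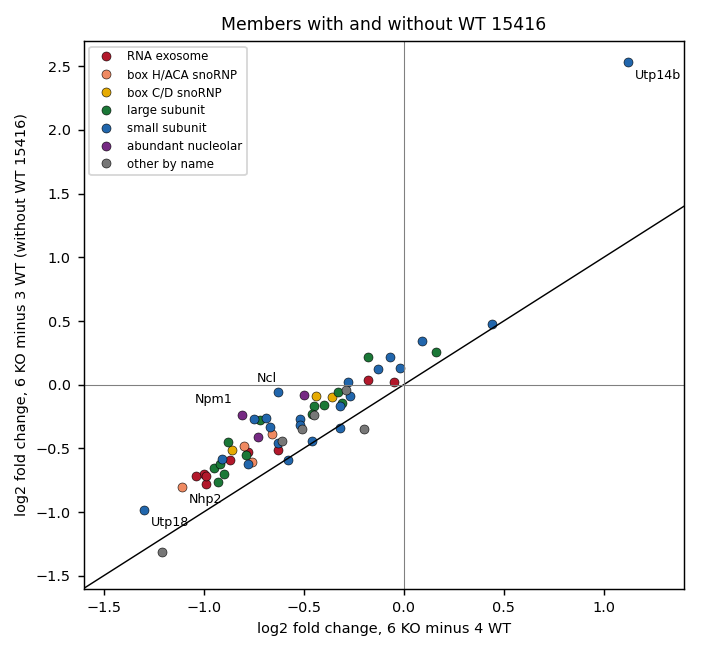
Log2 fold change of 61 members with all 10 libraries (horizontal axis) and without WT replicate 15416 (vertical axis), coloured by role group, with the line of equal values. Most points lie above the line, nearer to 0: Npm1 moved from -0.81 to -0.24, while Utp18 (-1.30 and -0.98) and Nhp2 (-1.11 and -0.80) kept the larger part of their difference.

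The RNA exosome was the role group with the most members called. Of the 9 subunit genes in the table, 6 were lower in KO and 3 did not pass the test, with a median log2 fold change of -0.87. Exosc6 was not analysed here. In what follows SE is the standard error of a log2 fold change, and TMM-normalized CPM, which corrects library size but not gene length, is given for KO as lowest, median and highest and for WT in the order of replicates 15416, 15417, 15418 and 15420. Exosc8, a ring subunit, was at 92.2, 98.3 and 159 CPM in KO and at 354, 163, 136 and 234 in WT. The highest KO library, replicate 15409, lay above the lowest WT library, and the other 5 KO libraries lay below all WT. Its log2 fold change was -1.04 (SE 0.26, adjusted p = 0.0836 by edgeR's quasi-likelihood test, Benjamini-Hochberg adjusted). Exosc7, another ring subunit and the exosome gene with the highest level per length, was at 121, 162 and 179 CPM in KO and at 477, 220.4, 184 and 343 in WT. The groups did not overlap, and the log2 fold change was -1.0 (SE 0.25, adjusted p = 0.0836 by the same edgeR test). Exosc9, a ring subunit as well, was at 52.5, 63.5 and 104 CPM in KO and at 216, 101, 103 and 152 in WT, with a log2 fold change of -0.99 (SE 0.27, adjusted p = 0.091 by the same edgeR test). Its highest KO library passed the 2 lowest WT libraries, and 10.8% of its exonic bases overlap Ccna2 on the other strand, whose reads SmartSeq2, which does not mark strand, cannot tell apart.

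The RNA of the genes for the exosome cap, which guides RNA into the ring, was lower as well. Exosc1 was at 41.4, 47.6 and 54.5 CPM in KO and at 131, 64.6, 57.0 and 124 in WT. Exosc3 was at 41.1, 49.0 and 59.6 CPM in KO and at 141, 73.3, 71.5 and 81.0 in WT. Exosc2 was at 112, 136 and 163 CPM in KO and at 352, 200.4, 167 and 232 in WT. All 3 genes had no overlap between groups, with log2 fold changes of -0.99 (SE 0.25), -0.87 (0.22) and -0.78 (0.21) and adjusted p of 0.0836, 0.0836 and 0.0909 by edgeR's quasi-likelihood test, Benjamini-Hochberg adjusted. Of the exonic bases of Exosc2, 12.4% overlap Gm13427 on the other strand.

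The remaining exosome genes did not pass. Exosc4 was at 56.2, 76.6 and 81.8 CPM in KO and at 144, 113, 113 and 90.3 in WT, without overlap, and had a log2 fold change of -0.63 (adjusted p = 0.101 by edgeR's quasi-likelihood test, Benjamini-Hochberg adjusted), with 19.8% of its exonic bases overlapping Oplah on the other strand. Exosc5, another ring subunit, had a log2 fold change of -0.18 and Exosc10, the nuclear exonuclease bound to the ring, -0.05. Exosc10 was at 120, 138 and 157 CPM in KO and at 163, 170, 169 and 70.1 in WT, so that WT replicate 15420 alone lay below the KO libraries. The sign for Exosc10 turned in 9 of 27 alternatives.

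**Figure D3:**
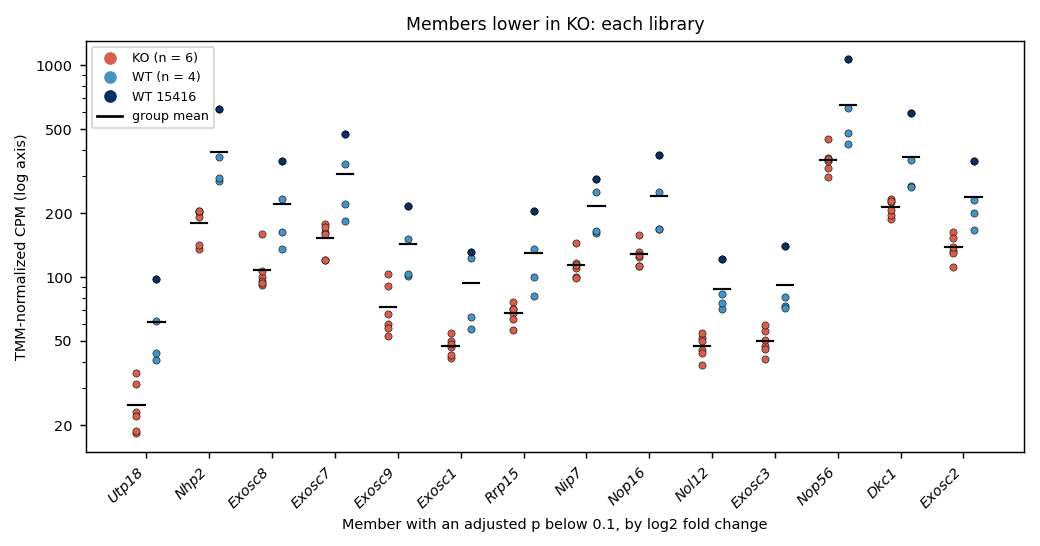
TMM-normalized CPM (log axis) of the 14 members lower in KO, for each of the 6 KO and 4 WT libraries, with group means as bars and WT replicate 15416 in dark blue. WT replicate 15416 is the highest point of every gene, and in Exosc8, Exosc9 and Nop56 the highest KO library passes the lowest WT library.

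The box H/ACA particle, which turns uridine into pseudouridine in ribosomal RNA and also binds telomerase RNA, was represented by all 4 of its core proteins. Its median log2 fold change was -0.78; 2 of the 4 genes were lower in KO and 2 did not pass, and in all 4 every KO library lay below every WT library. Nhp2, a core protein, was at 135, 198 and 206 CPM in KO and at 619, 285, 293 and 370 in WT. Its log2 fold change was -1.11, 2.16-fold lower (SE 0.24, adjusted p = 0.0824 by edgeR's quasi-likelihood test, Benjamini-Hochberg adjusted). Dkc1, the pseudouridine synthase dyskerin, was at 189, 217 and 233 CPM in KO and at 593, 269, 266 and 357 in WT, with a log2 fold change of -0.80 (SE 0.22, adjusted p = 0.0953 by the same test). Dkc1 lies on the X chromosome. Its mean was 211 CPM in the 2 KO libraries with high Xist and 215 in the 4 with low Xist. Nop10, the smallest core protein, was at 143, 208 and 220.1 CPM in KO and at 474, 225, 228 and 321 in WT, with a log2 fold change of -0.66 (adjusted p = 0.15 by the same edgeR test). Gar1 had a log2 fold change of -0.76 (adjusted p = 0.103 by the same edgeR test).

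The box C/D particle methylates ribosomal RNA. Of the 3 members that are core proteins of this particle 1 was lower in KO. Snu13, also of the particle, is not a member and did not pass (log2 fold change -0.64). Nop56, a scaffold of the particle, was at 297, 356 and 448 CPM in KO and at 1066, 628, 479.6 and 424 in WT. The groups overlapped in 1 KO and 1 WT library, and the log2 fold change was -0.86 (SE 0.24, adjusted p = 0.0959 by edgeR's quasi-likelihood test, Benjamini-Hochberg adjusted). The genome annotation (GRCm38) places 5 small nucleolar RNA genes inside Nop56, 4 inside Nop58 and 3 each inside Ncl and Gnl3. Fbl, the methyltransferase fibrillarin, did not pass, at 75.4, 100.6 and 119.7 CPM in KO and 184, 105, 112 and 92.1 in WT, with a log2 fold change of -0.36 and an adjusted p of 0.419 by the same test. Nop58 had a log2 fold change of -0.44.

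Among the 14 large subunit factors 4 were lower in KO and 10 did not pass, with a median log2 fold change of -0.59. Nip7, a pre-60S factor, was at 98.8, 112 and 145 CPM in KO and at 290.5, 162, 165 and 253 in WT. Nol12, a nucleolar RNA-binding protein of pre-rRNA processing, was at 38.3, 47.5 and 54.4 CPM in KO and at 122, 70.6, 83.2 and 75.9 in WT. Rrp15, also a pre-60S factor, was at 56.4, 69.3 and 76.3 CPM in KO and at 204, 99.8, 81.6 and 136 in WT. Nop16, another pre-60S factor, was at 113, 126 and 158 CPM in KO and at 376, 169.6, 169.7 and 252 in WT. In these 4 genes no KO library reached a WT library. Their log2 fold changes were -0.93 (Nip7), -0.90 (Nol12), -0.95 (Rrp15) and -0.92 (Nop16), with SEs of 0.20, 0.20, 0.24 and 0.23 and adjusted p of 0.0824, 0.0824, 0.0836 and 0.0836 by edgeR's quasi-likelihood test, Benjamini-Hochberg adjusted.

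Nop53 stood at the other end of that group. Nop53, which in yeast brings the exosome to the pre-60S particle, was at 242, 289.7 and 382 CPM in KO and at 328, 318, 288 and 147 in WT. Its log2 fold change was 0.16 (adjusted p = 0.771 by edgeR's quasi-likelihood test, Benjamini-Hochberg adjusted), and WT replicate 15420 was again the one WT library below KO. Left out, that library gives a log2 fold change of -0.05. The PeBoW genes Pes1, Bop1 and Wdr12, which form 1 complex, had -0.31, -0.46 and -0.88, none passing the test.

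The small subunit group was the largest and the most mixed. Of 22 genes, 1 was lower in KO and 21 did not pass; 19 had a log2 fold change below 0, with a median of -0.49 and a range from -1.30 to 1.12. Utp18, a subunit of the processome that folds the early precursor, was at 18.3, 22.7 and 35.3 CPM in KO and at 98.5, 62.1, 40.6 and 43.9 in WT. The groups did not overlap, and the log2 fold change was -1.30, 2.47-fold lower (SE 0.29, adjusted p = 0.0824 by edgeR's quasi-likelihood test, Benjamini-Hochberg adjusted), the lowest of the members with over 1000 counts. Imp4, which joins the U3 small nucleolar RNA to the precursor and had the highest level per length in the group, was at 161, 189 and 216 CPM in KO and 311, 256, 207 and 139 in WT (log2 fold change -0.27).

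The 3 members of this group with a log2 fold change above 0 were Utp14b, Nol6 and Utp20, and none passed. Nol6, of the processome, was at 30.3, 52.5 and 75.9 CPM in KO and at 42.5, 38.6, 59.2 and 15.1 in WT (0.44, adjusted p = 0.555 by edgeR's quasi-likelihood test, Benjamini-Hochberg adjusted). Utp20, a large scaffold of the processome, was at 27.5, 36.3 and 42.8 CPM in KO and at 50.5, 45.2, 20.3 and 19.8 in WT (0.09), and its sign turned when WT replicate 15418 or 15420 was left out. Utp14b is an intronless copy of the X-linked Utp14a known for its role in sperm formation. It was near the limit of detection, at 0.731, 1.53 and 6.28 CPM in KO and at 3.41, 0.532, 0.37 and 0.425 in WT (1.12, adjusted p = 0.554 by the same test), with 387 counts over all libraries. Utp14a itself had -0.91 (adjusted p = 0.152 by the same test), and reads of close copies can be split between them by the counting.

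**Figure D4:**
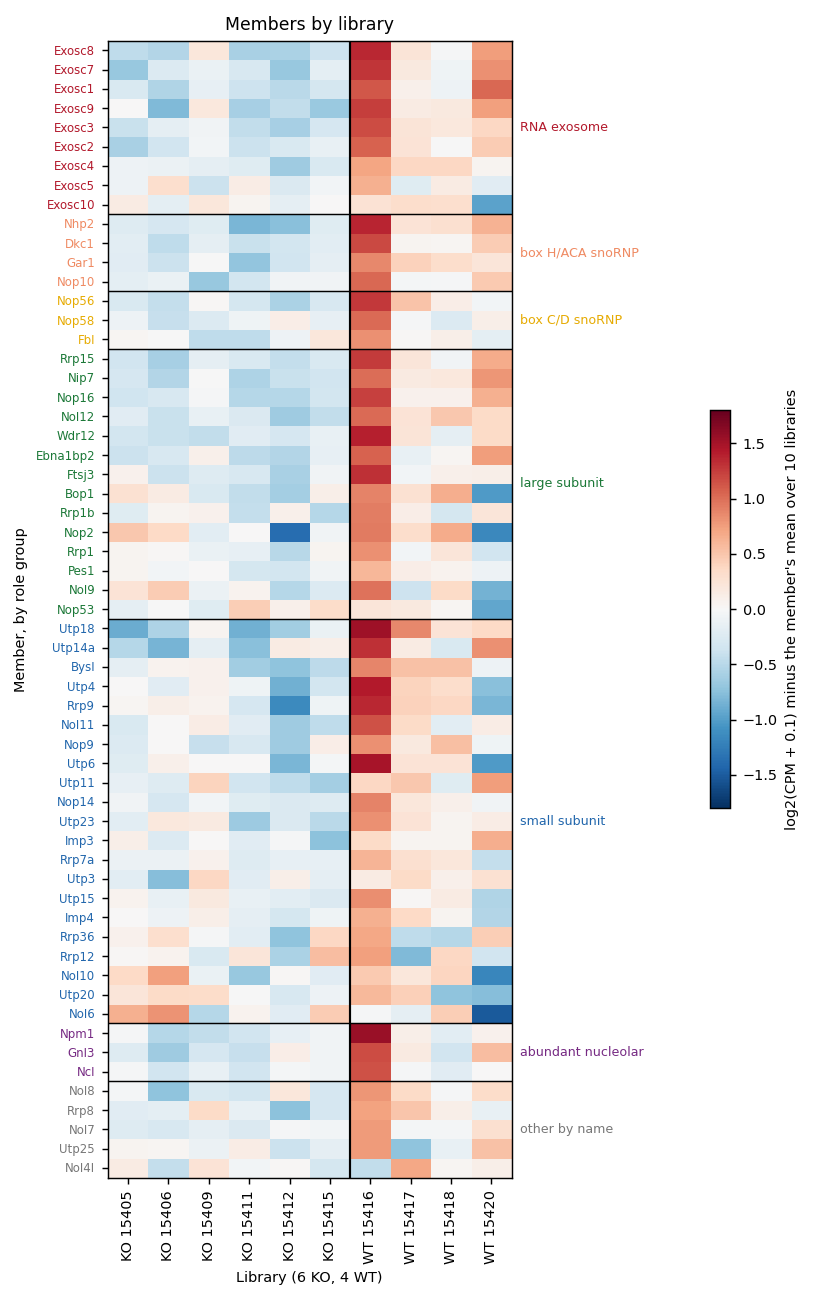
Each member's log2(CPM + 0.1) minus its own mean over the 10 libraries (colour), for 59 members with at least 1000 counts in total, by role group (rows) and library (columns), with KO left of the vertical line. WT replicate 15416 is red in nearly every row, the exosome and box H/ACA rows are mostly blue in KO, and WT replicate 15420 is red in most exosome rows but blue in Nop2, Nol6, Nol10 and Exosc10.

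The abundant nucleolar proteins did not pass the test. Npm1, nucleophosmin, was the highest member by TPM, which corrects for length: 1433 ± 998 TPM (SD, n = 4) in WT and 1071 ± 162 (SD, n = 6) in KO. On the CPM scale it was at 910.4, 1095 and 1284 in KO and at 3815, 1391, 1136 and 1364 in WT. WT replicate 15416 was far above all other libraries, and the other 3 WT libraries overlapped the KO range or lay just above it. The log2 fold change was -0.81 (SE 0.30, adjusted p = 0.175 by edgeR's quasi-likelihood test, Benjamini-Hochberg adjusted) and -0.24 without that library. Ncl, nucleolin, was at 637, 759.8 and 795 CPM in KO and at 1801, 800.3, 705 and 812 in WT, with a log2 fold change of -0.50 (adjusted p = 0.299 by the same test) and -0.08 without replicate 15416. Gnl3, nucleostemin, had -0.73 and -0.41. After Npm1 the next by mean TPM were Nop56 (351), Ncl (293), Nhp2 (290.1), Dkc1 (232), Nop10 (219), Nop53 (215) and Exosc7 (202). The mean TPM of Nop56 and Ncl differed by less than the SD of Nop56 in either group.

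Of the 7 genes that only share a name prefix or were not assigned a role, 0 passed by edgeR, by DESeq2 with the study's settings or by limma on log2(TPM + 1). By edgeR 2.67% of all genes passed as lower, so 0 of 7 does not set this group apart. At an unadjusted p below 0.05 by edgeR 2 of the 7 were lower, against 10.2% of all genes. Nol7, the highest of them by TPM, was at 39.8, 42.4 and 47.9 CPM in KO and at 82.7, 47.3, 47.4 and 59.0 in WT (log2 fold change -0.45). Nol4l had a log2 fold change of -0.20. Nol4 had 12 counts over all 10 libraries and no level above 0.379 CPM, and Nol3 389 counts, with 48.2% of its exonic bases overlapping a gene on the other strand.

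Of 86 other genes of the pathway 16 were lower in KO and 70 did not pass. This list holds genes of ribosome production and exosome function, none of them a member. Its median log2 fold change was -0.51, against 0.06 over all genes. By limma on log2(TPM + 1) it was -0.02, against 0.27 over all genes. The 16 were 18.6% of the list, and 0 were higher, by edgeR's quasi-likelihood test, Benjamini-Hochberg adjusted, against 2.67% and 1.32% of all genes. At an unadjusted p below 0.05 by that test 0 were higher, against 1438 of the 16725 genes tested. By DESeq2 with the study's settings 0 were higher at an adjusted p below 0.1, against 585 genes. By limma on log2(TPM + 1) 1 (Zcchc7) was higher at that adjusted threshold, against 485 genes. In 15 (17.4%) every KO library lay below every WT library, against 3.48% of all genes. By function, 8 of 29 other large subunit factors were lower, 3 of 23 other small subunit factors, 2 of 12 exosome cofactors and nucleases, 2 of 10 genes of snoRNP assembly and nucleolar organisation, and 1 of 12 genes of RNA polymerase I transcription. Rpf2, which loads the 5S particle on the large subunit, was at 37, 46.4 and 57.4 CPM in KO and at 185, 89.5, 68.8 and 117 in WT (log2 fold change -1.32, SE 0.26). Wdr61, of the Ski complex that serves the cytoplasmic exosome, was at 84.9, 122 and 141 CPM in KO and at 351, 226, 169 and 260 in WT (-1.08, SE 0.21). Znhit3, of box C/D particle assembly, was at 30.8, 40.1 and 49.7 CPM in KO and at 125, 73.1, 61.2 and 80.8 in WT (-1.11, SE 0.23). No KO library reached a WT library in these 3 genes, and each had an adjusted p of 0.0824 by the same edgeR test. The count over the list, as over all genes, was 0 without any one of KO replicates 15405, 15406, 15411, 15412 and 15415 or WT replicate 15416. Without WT replicate 15416 the list's median was -0.28, against 0.08 over all genes.

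The fold change varied with transcript length, and most members are short. Over 16276 genes with a known length, the log2 fold change was higher for longer mean transcript length (Spearman's rho 0.225 across genes, which share the libraries and are not independent replicates). The median length was 1426 bases over the members and 1846 over all genes. When all genes were split into 5 equal bins by length, the median of the members in each bin lay below the median of all genes: -0.73 against -0.25 in the shortest bin (19 members), -0.52 against -0.06 (15), -0.31 against 0.10 (13), -0.59 against 0.21 (10) and -0.07 against 0.34 in the longest (5). With a length term in the model the median was -0.46 over the members and 0.05 over all genes. In that edgeR fit 57 members (91.9%) had a log2 fold change below 0, against 47.0% of all genes. There 0 members passed an adjusted p of 0.1, as for every gene tested, while 26 were lower at an unadjusted p below 0.05, against 8.25% of all genes. Nhp2 had -0.83 and Utp18 -1.42 in that fit, but Exosc3 had -0.46 and Gar1 -0.34. The median of the exosome genes moved from -0.87 to -0.54 with the length term, and that of the box H/ACA genes from -0.78 to -0.46.

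**Figure D5:**
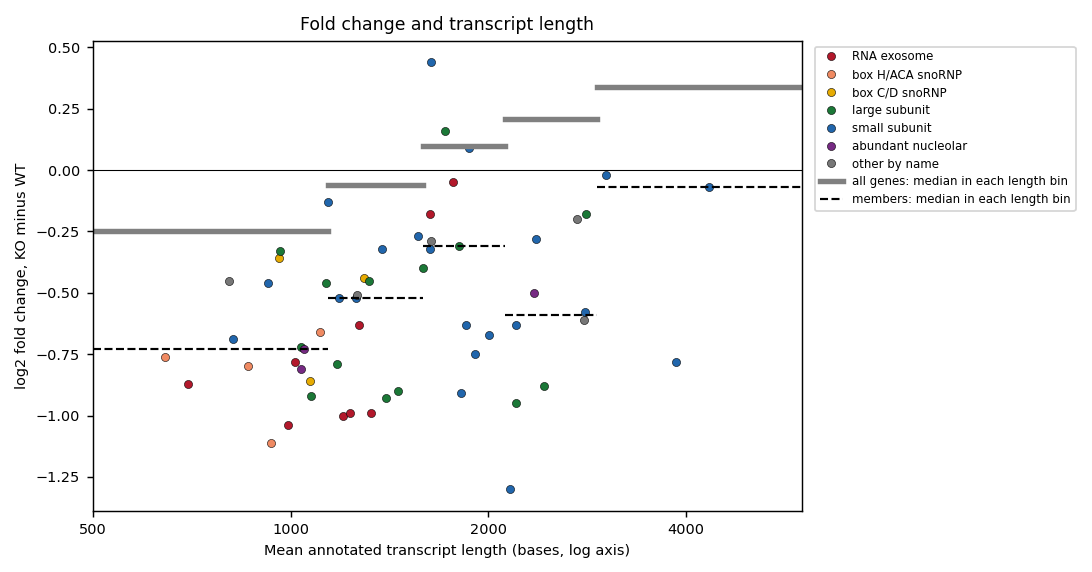
Log2 fold change, KO minus WT, of 59 members against their mean annotated transcript length (log axis), coloured by role group, with the median of all genes (grey) and of the members (dashed) in each of 5 bins of genes by length, the outer bins running past the axis. In every bin the dashed line lies below the grey line, and both are lowest in the shortest bin.

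The promoters of the members were read for 2 motifs: CACGTG, the E-box, which is its own reverse complement, and CCGGAAG, an ETS-type site, with its reverse complement CTTCCGG, each on both strands; they do not overlap each other in letters. RefSeq (GRCm38.p6) gave a window of 250 bases before to 50 after the start for 49 of the 62 members. CACGTG stood in 11 of these genes (22.4%), against 8.09% of 27025 genes in the table and 10.5% of the 12845 tested genes with a window, and CCGGAAG in 15 (30.6%), against 9.93% and 16.3%. Of the 13 members that were lower in KO and had a window, 1 held CACGTG and 6 held CCGGAAG. The median log2 fold change was -0.31 in members with CACGTG and -0.70 without it, and -0.76 with CCGGAAG and -0.56 without it; these are descriptions, and a match is not shown to be a bound site. The windows of 4 members that passed the test are shown as examples, with the motifs in capitals: Nhp2 (chr11:51619523-51619822, plus strand, at the start of a gene at chr11:51619735-51623714) with 1 ETS-type site, Nip7 (chr8:107056627-107056926, plus strand, gene at chr8:107056877-107060931) with 2, Utp18 (chr11:93885717-93886016, minus strand, gene at chr11:93859243-93885766) with both motifs, and Nop56 (chr2:130274162-130274461, plus strand, gene at chr2:130274430-130279313) with neither.
Nhp2: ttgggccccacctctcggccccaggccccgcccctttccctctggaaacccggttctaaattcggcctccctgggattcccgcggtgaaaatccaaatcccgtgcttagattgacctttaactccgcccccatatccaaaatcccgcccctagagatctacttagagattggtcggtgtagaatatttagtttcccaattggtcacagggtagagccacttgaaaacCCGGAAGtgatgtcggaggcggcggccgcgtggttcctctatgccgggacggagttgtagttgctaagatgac
Nip7: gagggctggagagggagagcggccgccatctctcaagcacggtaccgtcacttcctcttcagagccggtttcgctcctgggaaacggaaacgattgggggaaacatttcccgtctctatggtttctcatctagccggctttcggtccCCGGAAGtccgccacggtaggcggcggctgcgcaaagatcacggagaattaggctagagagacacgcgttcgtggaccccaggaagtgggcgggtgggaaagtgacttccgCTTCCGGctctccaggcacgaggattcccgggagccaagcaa
Utp18: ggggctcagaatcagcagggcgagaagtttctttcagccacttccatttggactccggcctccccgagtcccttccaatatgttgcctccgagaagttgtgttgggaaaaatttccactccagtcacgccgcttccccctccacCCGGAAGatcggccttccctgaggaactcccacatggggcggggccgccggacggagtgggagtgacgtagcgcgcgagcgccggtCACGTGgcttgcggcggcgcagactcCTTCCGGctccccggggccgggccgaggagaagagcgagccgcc
Nop56: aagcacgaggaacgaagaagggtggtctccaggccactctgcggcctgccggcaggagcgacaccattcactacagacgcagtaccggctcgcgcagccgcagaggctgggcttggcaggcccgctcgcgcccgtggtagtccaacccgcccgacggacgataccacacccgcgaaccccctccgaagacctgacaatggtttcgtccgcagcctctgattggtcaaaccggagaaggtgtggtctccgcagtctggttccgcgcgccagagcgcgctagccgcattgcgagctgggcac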

How the data were processed

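LT-HSC libraries of 6 KO and 4 WT embryos were analysed. The authors sequenced SmartSeq2 libraries single-end and quantified Gencode vM16 transcripts (GRCm38) with Kallisto 0.44.0. They deposited estimated counts (expected counts) summed per gene and rounded, and per library a transcript table with estimated counts and TPM, both as deposited values without further scaling. The test of KO against WT was edgeR 4.0.16 (glmQLFit, robust, glmQLFTest, TMM) in R 4.3.3 on genes whose counts summed to 11 or more, with Benjamini-Hochberg adjustment over 16725 genes and an adjusted p threshold of 0.1, which is the study's. DESeq2 1.42.0 with the study's log2 fold-change threshold of 0.1 and limma 3.58.1 on log2(TPM + 1) or log2(TPM + 0.1) were alternatives. Standard errors follow from the quasi-likelihood F statistic. The scripts were tested on simulated data. Gene positions, lengths and GC come from Gencode vM21, on the same build, with which all 62 member symbols matched.

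Lists: members by role group and the pathway list were fixed by symbol, with members and lists chosen with earlier results of these data known. Named genes are Npm1, Ncl and Fbl, every member that passed, in each role group the highest by TPM and the lowest and highest by fold change, every member with a fold change above 0, and the 3 pathway genes with the smallest p. Other members named in the text were added after their values were seen. The pathway names Twistnb, Znrd1, Nhp2l1, Riok2, Skiv2l2 and Papd5 and the role names Exosc6 and Utp11l were not analysed here. Depth was 5315435 to 30941726 counts on genes, without molecular identifiers. SmartSeq2 reads are not stranded. The study counts its replicates as embryos.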

Additional observations from a re-analysis of the deposited data

Results flagged for a closer look

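Of 62 groups of library values of named genes and of the members' median, 6 held a library far from the rest of its own group by Dixon's test at 95%, and chance flags about 1 in 20 groups. In WT, replicate 15416 stood above the other 3 libraries for Npm1 (3815 CPM), Ncl (1801 CPM) and Utp14b (3.41 CPM). Replicate 15420 stood below the other WT libraries for Exosc10 (70.1 CPM) and Nop53 (147 CPM). In KO, replicate 15409 stood above the other 5 libraries for Exosc8 (159 CPM).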

How the results depend on the processing

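The number of members lower in KO (14, with 446 of all genes) was 11 to 19 under DESeq2 with the study's settings, DESeq2 size factors, upper-quartile normalization, all 3 other filters on low counts, no robust option, a GC offset and transcript sums, and 24 by DESeq2 without a fold-change threshold. Of all genes, 316 to 646 were lower in the fits with 11 to 19 members, and 1145 in the fit with 24. It was 0 with an Xist covariate, a length offset, limma on log2(TPM + 1) or log2(TPM + 0.1), limma on TMM-scaled TPM, without the 3 libraries highest in hepatoblast markers, in the 6 libraries with high Xist (these 3 were chosen after seeing the data) and at an adjusted p below 0.05, while 0 to 32 members were lower at an unadjusted p below 0.05 in these fits. The share of all genes lower at that unadjusted p was 0.879% by limma on log2(TPM + 1), which had 0 members. It was 10.2% in the edgeR fit of all 10 libraries, which had 32. With 1 library left out the number of members lower in KO ran from 0 to 18, and that of all genes from 0 to 598. Wherever edgeR gave 0 members at an adjusted p below 0.1, 0 of all genes were lower. The number of other pathway genes lower in KO (16) was 28 by DESeq2 without a threshold, 0 under the same settings that gave 0 members, and 0 to 16 with 1 library left out. The number of members higher in KO was 0 in every fit and in every fit with 1 library left out, against 0 to 998 of all genes. By limma on log2(TPM + 1) and on log2(TPM + 0.1) 1 pathway gene was higher, against 485 and 751 of all genes. The median log2 fold change of the members (-0.62, against 0.06 over all genes) was -0.12 and -0.15 by limma on log2(TPM + 1) and log2(TPM + 0.1), against 0.27 and 0.47. By limma on TMM-scaled TPM it was -0.39, against 0.12 over all genes. The members' median ran from -0.69 to -0.33 with 1 library left out, the latter without WT replicate 15416.

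Of 30 named genes, 23 never changed sign. By limma on log2(TPM + 1) and log2(TPM + 0.1), Fbl had 0.13 and 0.13, Imp4 0.13 and 0.13, Nol7 0.05 and 0.05, and Exosc10 0.40 and 0.41. In these fits the median over all genes was 0.27 and 0.47, with 22.9% and 22.2% of all genes below 0. Fbl, Imp4 and Nol7 lay below that median in both fits, and Exosc10 only in the latter. Exosc10 also had 0.0 with transcript sums, 0.13 by limma on TMM-scaled TPM and 0.12 without the 3 libraries highest in hepatoblast markers, and Nop53 -0.07 in the 6 libraries with high Xist. With 1 library left out, the range was -0.28 to 0.08 for Exosc10, -0.05 to 0.26 for Nop53, -0.35 to 0.04 for Nol4l and -0.10 to 0.34 for Utp20. The cause of these differences was not tested, and depth limits Nol4, Nol3 and Utp14b. The study describes its controls as littermates, but the labels used here do not give the litter, so no paired analysis was made.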

Other observations

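Among the annotated transcripts of the members, protein-coding ones held 75.2% to 77.2% of the members' estimated counts in KO and 78.4% to 79.5% in WT, without overlap, while on the TPM scale the shares overlapped (67.7% to 70.1% in KO and 69.6% to 73.3% in WT). Transcripts with a retained intron held 12.4% to 14.3% of the counts in KO and 12.4% to 12.9% in WT. These shares were taken over the members only. A shift over all genes therefore cannot be told from one in these genes. No test was made on the shares.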
